A study of Mus musculus with 6 samples.

Results

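The genes described here are 29 genes of cholesterol synthesis and transport, chosen by symbol from the 27998 genes of the count matrices. They comprise 18 enzymes of synthesis, 5 genes that control the pathway and 6 genes of transport and efflux, and each of the 29 has a row in every matrix. Cells were cultured from dissociated mouse retina, in medium with serum and EGF, and transfected with small RNAs at 500 nM each; the age, sex and strain of the mice and the number pooled are not given in the labels. The 6 single-cell libraries were 1 per treatment: a let-7 antagomiR (it blocks miRNAs of the let-7 family), a miR-25 mimic, the let-7 antagomiR with the miR-25 mimic (called the double combination here), a miR-124 mimic, all 3 RNAs together (the triple combination), and control mimic and antagomiR. With 1 library per treatment there is no replicate check and no test of treatment, and each interval below is a 95% interval for counting error only.

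Cholesterol is built from acetyl-CoA through mevalonate, squalene and lanosterol, and the transcription factor SREBP2 switches on most of the enzymes together. INSIG proteins hold the SREBP escort SCAP in the endoplasmic reticulum when sterols are plentiful, and INSIG1 is itself a target of SREBP. Cholesterol leaves glia through the transporters ABCA1 and ABCG1 onto apolipoprotein E, under control of the LXR receptors, and Müller glia are a known source of apolipoprotein E in the retina.

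A miRNA acts through a short seed, bases 2 to 8 of its mature form. This holds for the mimics and for the let-7 miRNAs that the antagomiR blocks. The seeds and the sites in members that match them are therefore shown first. The mature mouse sequences were taken from RefSeq (GRCm38.p6), with the seed in capitals. Since no label names an arm, the 3p arm of miR-25 was assumed; miR-124 is named only.
mmu-miR-25-3p: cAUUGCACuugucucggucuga
mmu-let-7a-5p: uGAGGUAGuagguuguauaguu
The other let-7 miRNAs found in that table share the seed GAGGUAG.

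Of the 29 members, 4 had a match to the miR-25 seed (GTGCAAT) in an annotated 3′ UTR and 2 had a match to the let-7 seed (CTACCTC), using GENCODE M21 transcripts of GRCm38. Over 20996 genes with a 3′ UTR, 6.55% had the first and 8.95% the second. The sites of the members are given 5′ to 3′ on the transcript strand, with the seed match in capitals. Each is a match of letters and not a shown site of action.
Insig1, miR-25 match, chr5:28077753-28077782, + strand: ttcaacttcaaGTGCAATgtgtatgaaaac
Nsdhl, miR-25 match, chrX:72958160-72958189, + strand: gctcagtgatgGTGCAATgcaatggtacag
Sc5d, miR-25 match, chr9:42253408-42253437, - strand: cgtttgcagtgGTGCAATctctaagttgct
Abcg1, miR-25 match, chr17:31117098-31117127, + strand: gtctgggcacaGTGCAATcccttctggctt
Srebf2, let-7 match, chr15:82204824-82204853, + strand: caccctcactcCTACCTCccatagaagtgt
Abcg1, let-7 match, chr17:31115177-31115206, + strand: aatcacattaaCTACCTCcaccgagcctgg

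The values below are from Müller-like cells unless another class is named. The matrices held 11804176 to 23124374 UMIs (unique RNA molecules counted), and only part of the double combination could be read, 3014 of 5141 barcodes. Pairs of libraries shared 9 to 33 cell barcodes, at most 0.839% of the smaller list. Müller-like cells were 1484 with let-7 antagomiR, 2913 under miR-25 mimic, 1366 in the double combination, 1240 in the miR-124-labelled library, 2198 in the triple-labelled library and 1295 in the control, with 3587710 to 11453082 UMIs per library. The 20 genes of the Müller glia list, which also served to name the class, had a summed level there of 9639 to 15979.9 CPM (UMIs scaled to a common library total). All 20 had UMIs in Müller-like cells of every library. So did 8 of 8 genes of the astrocyte list and 10 of 11 of the pericyte or smooth muscle list. These class names were rebuilt here from marker genes, so they need not match the names used by the study. Median depth in Müller-like cells was 2661.5 to 5652 UMIs, lowest in the miR-124-labelled library, and the median mitochondrial share was 5.90% to 7.51%, highest in that library.

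The makeup of the class differed between libraries, and this touches every comparison. Its cells fell into clusters led by Grem1, Lcn2 and Rlbp1; Gfap is also among the leading genes of the Rlbp1-led one, and C3, a complement gene, among those of the Lcn2-led one. In the Rlbp1-led cluster lay 679 Müller-like cells from the miR-124-labelled library, 1726 from the triple-labelled library and at most 25 from any of the other 4, where the Grem1-led and Lcn2-led clusters held most. The Grem1-led cluster held 738 of 1484 Müller-like cells with let-7 antagomiR, 1053 of 2913 under miR-25 mimic, 855 of 1366 in the double combination and 588 of 1295 in the control. Genes with a miR-25 match had a median log2 ratio to control that differed from that of the other genes by -0.17 with miR-25 mimic and by -0.21 in the double combination. In the triple-labelled library the difference was 0.075, on the other side of 0, although its label names miR-25, and in the miR-124-labelled library it was 0.075 too. For let-7 matches the difference was 0.039 with let-7 antagomiR, 0.0085 in the double combination and 0.062 in the triple-labelled library, whose labels all name the antagomiR. It was 0.13 in the miR-124-labelled library, whose label names no let-7 inhibitor. Both libraries are called by their labels here for that reason.

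With miR-25 mimic, Insig1 was lower than in the control while the enzymes of synthesis were slightly higher. Insig1 (ENSMUSG00000045294) stood at 151 CPM with let-7 antagomiR, 86.5 under miR-25 mimic, 60.96 in the double combination, 122 in the miR-124-labelled library, 126 in the triple-labelled library and 159.9 in the control. The 2 libraries that received miR-25 mimic without a miR-124 label were thus the lowest, and their intervals (81.2 to 92.1 and 54.7 to 67.8 CPM) lay below those of the other 4. The ratio of CPM was 0.541 for miR-25 mimic over control (interval 0.493 to 0.594), and 0.404 for the double combination over let-7 antagomiR (0.358 to 0.456), a comparison that shares no library with the first. Let-7 antagomiR over control gave 0.943 (0.864 to 1.03), an interval that includes 1.

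Insig1 was lower with miR-25 mimic in both clusters that hold most cells of these libraries. In the Grem1-led cluster it stood at 93.1 CPM with miR-25 mimic against 141 in the control, and at 65.6 in the double combination against 151 CPM for let-7 antagomiR. In the Lcn2-led cluster it stood at 82.5 CPM with miR-25 mimic against 179 in the control, and at 51.1 in the double combination against 151 CPM for let-7 antagomiR. Astrocyte-like cells had the same directions, with 162 CPM under miR-25 mimic against 269 in the control, and 132 in the double combination against 264 for let-7 antagomiR, though the miR-124-labelled and triple-labelled libraries were low there too, at 145 and 153 CPM. Fibroblast- or mesenchymal-like cells did not: there Insig1 was higher with miR-25 mimic than in the control, at 100.1 CPM against 69.9 (ratio 1.43, interval 1.28 to 1.61), and lower in the double combination than with let-7 antagomiR, at 77.8 CPM against 119. Pericyte- or smooth-muscle-like cells had 50.6 CPM with miR-25 mimic against 72.0 in the control, and 45.7 in the double combination against 43.2 for let-7 antagomiR. In microglia- or macrophage-like cells, with 6 to 53 UMIs per library, the ratio for miR-25 mimic over control was 1.12 and its interval, 0.606 to 2.003, includes 1.

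The other members with a miR-25 match did not share the direction of Insig1 in the comparison of miR-25 mimic with control. Nsdhl and Sc5d, enzymes of late sterol synthesis, were higher with miR-25 mimic than in the control, at 37.0 CPM against 27.0 (ratio 1.37, interval 1.13 to 1.67) and at 69.6 CPM against 48.3 (ratio 1.44, 1.25 to 1.67). Both were lower in the double combination than with let-7 antagomiR, by ratios of 0.799 (0.655 to 0.971) and 0.745 (0.642 to 0.862). Abcg1, an exporter of sterols, had 8 to 56 UMIs per library and stood at 4.89 CPM with miR-25 mimic and 9.45 in the double combination, against 1.51 in the control, too low for the level filter described next.

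**Figure D1:**
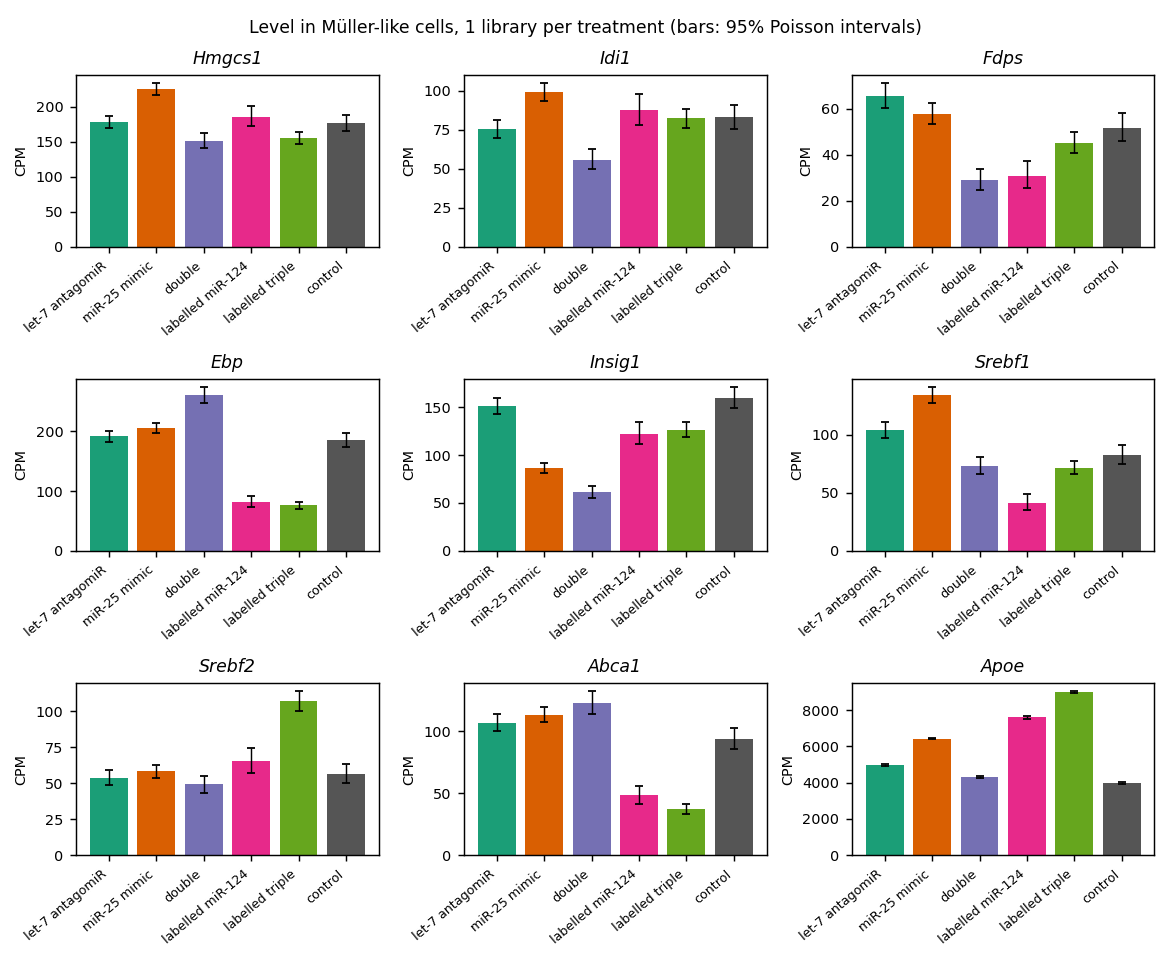
Level in Müller-like cells (CPM, vertical axes from 0) of 9 members in the 6 libraries; bars are single libraries and the error bars 95% Poisson intervals. Insig1 is lowest with miR-25 mimic and in the double combination, at 86.5 and 60.96 CPM, and Ebp and Abca1 are lowest in the miR-124-labelled and triple-labelled libraries.

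For the counts that follow, a gene was tested only if it reached 20 CPM in at least 1 library, and it was called higher or lower where CPM + 5 differed at least 1.5-fold. Of the 29 members, 23 passed: 14 of 18 for synthesis, 5 of 5 for control and 4 of 6 for transport. Mvd, Lss, Tm7sf2, Dhcr7, Abcg1 and Nr1h3 did not pass, at 18.2 CPM or less in every library. Log2 ratios are of CPM + 5, which draws the ratios of low genes toward 0.

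The comparison of miR-25 mimic with control had the synthesis enzymes on 1 side of 0. All 14 measured enzymes had log2 ratios above 0, from 0.06 to 0.49, with a median of 0.26, where the median of 7122 genes tested was 0.03. None reached 1.5-fold. Hmgcs1, which makes HMG-CoA, had 225 CPM with miR-25 mimic against 177 in the control, and Idi1, the isopentenyl diphosphate isomerase, 99.4 against 83.2 in the control. Of the 23 members, 2 were called higher, where 1.47% of all genes tested were, and 1 lower, where 0.997% were. Those called were Srebf1 and Apoe on the higher side and Insig1 on the lower side. In the Lcn2-led cluster alone, Srebf1 and Apoe fell short of the call, with log2 ratios of 0.58 and 0.48. The call of Insig1, a log2 ratio of -0.85, was lost in the Grem1-led cluster alone, at -0.57, and over all kept cells of every class, at -0.20.

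Let-7 antagomiR over control gave no call among the 23 members, where 1.08% of genes tested were higher and 0.688% lower. The 14 synthesis enzymes had a median log2 ratio of 0.12, against 0.01 for all genes, with 12 above 0. Within the Lcn2-led cluster 7 of the 14 were above 0.

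In the double combination the enzymes lay on the other side. Over control, 11 of the 14 had log2 ratios below 0 and the median was -0.19, against -0.01 for all genes. Over let-7 antagomiR, 13 of 14 were below 0 with a median of -0.33, and over miR-25 mimic 13 of 14 with a median of -0.43; Ebp was the gene above 0 in both. These 3 comparisons share the double combination library, so they are not separate results. In its Müller-like cells the summed Müller glia list was the lowest of the 6, at 9639 CPM against 13969 in the control. The summed pericyte or smooth muscle list was the highest, at 6198 CPM against 4356 in the control. The part of these levels in the result was not tested; the enzyme medians were also below 0 over control within the Grem1-led and Lcn2-led clusters, at -0.12 and -0.30. Among the 23 members, 0 were called higher and 2 lower over control (of genes tested, 3.29% were higher and 4.97% lower), 0 and 2 over let-7 antagomiR (2.08% and 4.02%), and 0 and 3 over miR-25 mimic (2.08% and 3.72%).

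Fdps, the farnesyl diphosphate synthase, was called lower in each of those comparisons, though over control not when all kept cells were used (log2 ratio -0.55). It stood at 65.8 CPM with let-7 antagomiR, 57.9 under miR-25 mimic, 29.1 in the double combination, 30.9 in the miR-124-labelled library, 45.1 in the triple-labelled library and 51.9 in the control. The double combination and the miR-124-labelled library were the lowest, and their intervals overlap. Its ratio in the double combination was 0.442 over let-7 antagomiR (interval 0.369 to 0.526) and 0.560 over control (0.459 to 0.682). In fibroblast- or mesenchymal-like cells Fdps was lowest in the double combination too, at 60.7 CPM, and highest in the triple-labelled library, at 213, against 74.7 in the control.

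The remaining enzymes that passed the filter were Acat2, which makes acetoacetyl-CoA, Mvk and Pmvk, the kinases of mevalonate, Fdft1 and Sqle, which make and oxidise squalene, and Cyp51, Msmo1 and Hsd17b7, which act on the sterol ring after lanosterol. Acat2 ranged from 15.3 to 23.5 CPM over the libraries, Pmvk from 40.6 to 55.9, Fdft1 from 44.2 to 59.7, Msmo1 from 72.2 to 100.4 and Sqle from 49.2 to 87.8, each with the double combination lowest. Mvk ranged from 25.4 CPM in the miR-124-labelled library to 45.5, and Hsd17b7 and Cyp51 from 35.03 and 60.5 CPM in the triple-labelled library to 56.5 and 106, each with miR-25 mimic highest. Of these 8, Sqle was the one called in any of the 8 comparisons.

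**Figure D2:**
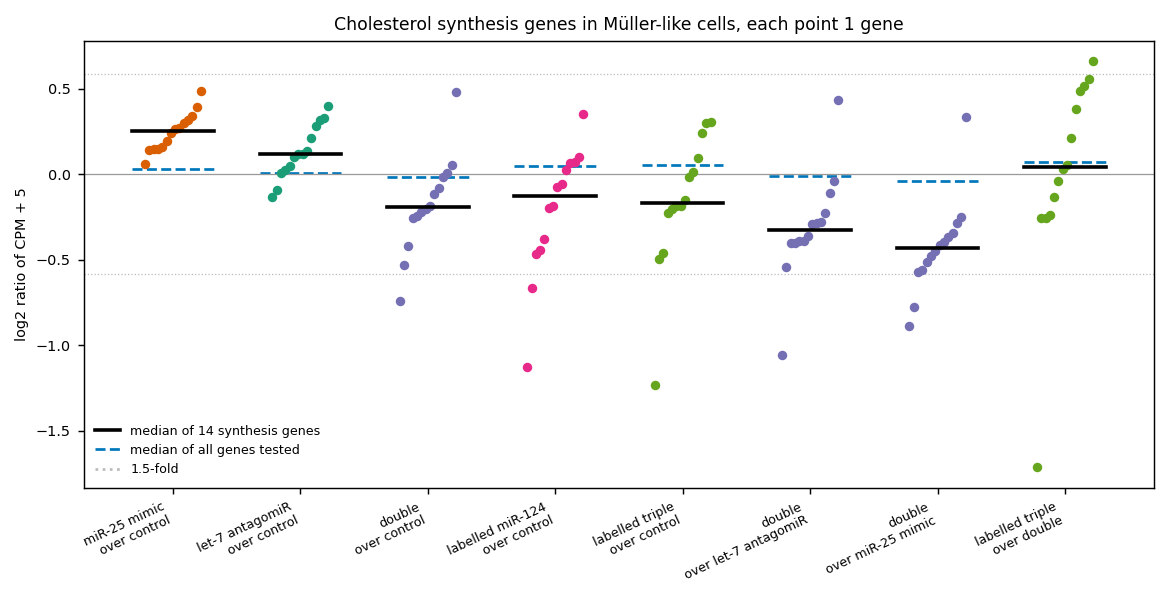
Log2 ratio of CPM + 5 (vertical axis) of the 14 measured synthesis enzymes in Müller-like cells for 8 comparisons of libraries; each point is 1 gene, black lines are medians of the enzymes, dashed lines medians of all 7122 genes tested and dotted lines 1.5-fold. All 14 points are above 0 for miR-25 mimic over control, and 13 of 14 are below 0 for the double combination over let-7 antagomiR.

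In the miR-124-labelled and triple-labelled libraries most synthesis enzymes were near the control and Ebp stood apart. Over control, 9 of 14 enzymes were below 0 in each, with medians of -0.13 and -0.17, where all genes had 0.05 and 0.06. With no level filter, which takes in all 18 enzymes, the enzyme medians were -0.09 and -0.0005. In the Lcn2-led cluster 14 of 14 were below 0 in the miR-124-labelled library, with a median of -0.32. In the triple-labelled one 7 of 14 were below 0 there, with a median of -0.005. Ebp (ENSMUSG00000031168), the sterol isomerase of late synthesis, stood at 191 CPM with let-7 antagomiR, 205 under miR-25 mimic, 260.2 in the double combination, 81.9 in the miR-124-labelled library, 75.9 in the triple-labelled library and 185 in the control. The 2 libraries with miR-124 in their label were the lowest, and the double combination the highest. The ratio to control was 0.443 (interval 0.387 to 0.505) in the miR-124-labelled library and 0.410 (0.371 to 0.453) in the triple-labelled one.

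Within clusters the libraries lay closer together for Ebp. In the Grem1-led cluster Ebp stood at 194 CPM in the miR-124-labelled library and 234 in the triple-labelled one, against 205 in the control, and in the Lcn2-led cluster at 112 and 131 in these libraries against 165 in the control. In the Rlbp1-led cluster it stood at 30.02 CPM in the miR-124-labelled and 43.1 in the triple-labelled library. The direction over control in the triple-labelled library thus turned in the Grem1-led cluster, with a log2 ratio of 0.18. The median of the synthesis enzymes turned with it there, at 0.27.

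Members called in the miR-124-labelled library over control were 1 higher (Apoe) and 4 lower (Ebp, Fdps, Srebf1 and Abca1), where 8.24% of genes tested were higher and 6.85% lower. All 5 calls were lost in the Grem1-led cluster alone, with log2 ratios of 0.45 for Apoe, -0.08 for Ebp, -0.20 for Fdps, -0.43 for Srebf1 and -0.45 for Abca1. In the Lcn2-led cluster Ebp and Srebf1 were lost, at -0.54 and -0.55, and over all kept cells the 4 lower calls were lost. In the triple-labelled library over control 2 were higher (Apoe and Srebf2) and 2 lower (Ebp and Abca1), where 11.4% and 8.97% were. Srebf2 and Ebp lost the call in both clusters, at 0.24 and 0.18 in the Grem1-led and 0.38 and -0.32 in the Lcn2-led one. Abca1 lost it in the Grem1-led cluster, at -0.53, and over all kept cells, at -0.57, where Ebp lost it too, at -0.31. Over the double combination, the triple-labelled library had 4 members higher (Apoe, Srebf2, Insig1 and Sqle) and 2 lower (Ebp and Abca1), where 18.3% and 13.4% were. In both clusters the calls of Apoe, Srebf2 and Ebp were lost, and that of Sqle in the Grem1-led one.

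The control genes of the pathway did not move as 1 group. Srebf1, whose product favours genes of fatty acid synthesis, stood at 104 CPM with let-7 antagomiR, 134 under miR-25 mimic, 73.4 in the double combination, 41.5 in the miR-124-labelled library, 71.3 in the triple-labelled library and 82.6 in the control. It was highest with miR-25 mimic, with a ratio to control of 1.62 (interval 1.46 to 1.81), and lowest in the miR-124-labelled library, with 0.503 (0.415 to 0.607). Within the Grem1-led and Lcn2-led clusters the triple-labelled library was above the control instead, at 117 CPM in the triple-labelled library against 82.2 in the control, and at 103 against 81.4 in the control.

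Srebf2, the main activator of the synthesis enzymes, stood at 53.7 CPM with let-7 antagomiR, 58.2 under miR-25 mimic, 49.0 in the double combination, 65.2 in the miR-124-labelled library, 107 in the triple-labelled library and 56.4 in the control. The triple-labelled library was alone at the top, with a ratio to control of 1.89 (interval 1.66 to 2.16). Within clusters the gap was smaller, at 64.8 CPM in the triple-labelled library against 54.1 in the control for the Grem1-led cluster and with a ratio of 1.32 (1.02 to 1.71) in the Lcn2-led one. The Rlbp1-led cluster of that library stood at 119 CPM. Scap, the escort of the SREBPs, ranged from 41.2 to 52.4 CPM over the libraries and Insig2, the second INSIG gene, from 121 to 168, and neither was called in any of the 8 comparisons.

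Apoe, the lipoprotein of glia, and Abca1, the transporter that loads it, went opposite ways in the libraries with miR-124 in their label. Apoe (ENSMUSG00000002985) stood at 4955 CPM with let-7 antagomiR, 6428 under miR-25 mimic, 4314 in the double combination, 7593 in the miR-124-labelled library, 8980.4 in the triple-labelled library and 3994 in the control. The control was the lowest, and the 2 libraries with miR-124 in their label were the highest. The ratio to control was 1.61 with miR-25 mimic (interval 1.59 to 1.63), 1.90 in the miR-124-labelled library (1.87 to 1.94) and 2.25 in the triple-labelled one (2.21 to 2.28). In the double combination it was 0.871 of that with let-7 antagomiR over the whole class.

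Apoe also differed between the clusters. In the Grem1-led cluster the libraries held 2875 CPM with let-7 antagomiR, 3388 under miR-25 mimic, 2995 in the double combination, 2948 and 3550.0 in the miR-124-labelled and triple-labelled libraries, and 2150.4 in the control. In the Lcn2-led cluster they held 7576 CPM with let-7 antagomiR, 8234 under miR-25 mimic, 7187 in the double combination, 9389 and 9858 in the miR-124-labelled and triple-labelled libraries, and 5898 in the control. The control was thus lowest within both of these clusters as well. The double combination was above let-7 antagomiR in the Grem1-led cluster (ratio 1.04, interval 1.02 to 1.07) and below it in the Lcn2-led one (0.949, 0.929 to 0.969). Microglia- or macrophage-like cells held 9077 to 13122 CPM and did not have the control lowest, with 13027 in the triple-labelled library and 12103 in the control.

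Abca1 (ENSMUSG00000015243) stood at 106 CPM with let-7 antagomiR, 113 under miR-25 mimic, 123 in the double combination, 48.2 in the miR-124-labelled library, 37.2 in the triple-labelled library and 93.5 in the control. The ratio to control was 0.516 (interval 0.431 to 0.614) in the miR-124-labelled library and 0.397 (0.345 to 0.458) in the triple-labelled one. Abca1 was also lower within the Grem1-led cluster, at 77.5 CPM in the miR-124-labelled and 72.6 in the triple-labelled library against 107 in the control. In the Lcn2-led cluster it stood at 50.2 and 46.2 CPM in these libraries against 79.0 in the control. Most Müller-like cells of these libraries, 679 of 1240 and 1726 of 2198, lay in the Rlbp1-led cluster, which held 9 control cells. The part of this in the ratios over the whole class was not tested. Microglia- or macrophage-like cells, which held 145 to 191 CPM, did not follow, with 191 and 145 CPM in these libraries against 175 in the control. Genes of the pericyte or smooth muscle list, of which 10 of 11 had UMIs in every library, moved the same way in Müller-like cells. Their summed level was 2064 CPM in the miR-124-labelled library and 1203 in the triple-labelled one, against 4356 in the control, and its part in these results was not tested.

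Of the remaining transport genes, Stard4, a carrier of sterol between membranes, ranged from 19.8 to 27.2 CPM over the libraries and Nr1h2, an LXR receptor, from 35.4 to 44.3, and neither was called in any comparison. Nr1h3, the other LXR receptor, stood at 2.67 to 4.02 CPM. In microglia- or macrophage-like cells Abcg1 stood at 24.2 to 57.4 CPM, above its level in Müller-like cells in each of the 6 libraries.

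**Figure D3:**
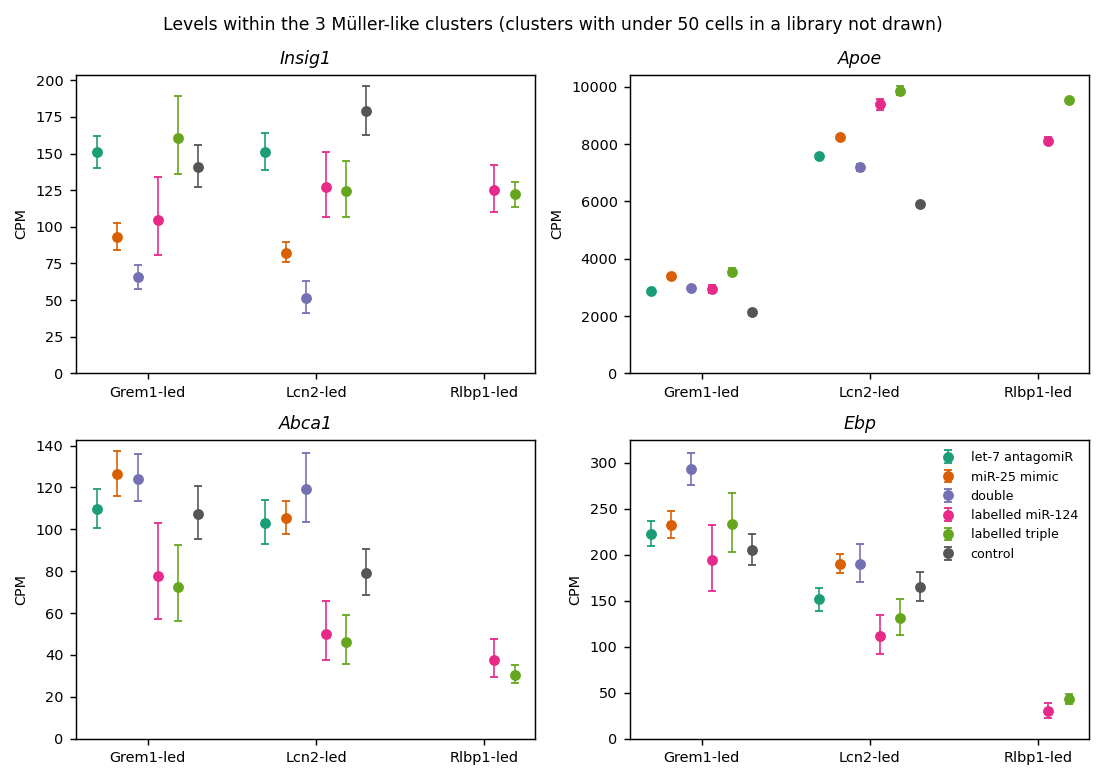
Level (CPM, vertical axes from 0) of Insig1, Apoe, Abca1 and Ebp within the 3 Müller-like clusters; points are single libraries with 95% Poisson intervals, and libraries with under 50 cells in a cluster are not drawn. Insig1 is lowest with miR-25 mimic and in the double combination in the Grem1-led and Lcn2-led clusters, and Ebp is at 30.02 and 43.1 CPM in the Rlbp1-led cluster.

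Across cell classes the synthesis enzymes were highest in astrocyte-like cells. The summed level of the 18 enzymes had a median over libraries of 1812 CPM there (1401 to 2123), 1127 in fibroblast- or mesenchymal-like cells (819 to 1427), 1022 in Müller-like cells (898 to 1270.0), 644 in the pericyte- or smooth-muscle-like class (593 to 1027) and 502 in microglia- or macrophage-like cells (381 to 587). Astrocyte-like cells were above Müller-like cells in all 6 libraries for 17 of the 18 enzymes, and Ebp was the one below in all 6. Microglia- or macrophage-like cells were below Müller-like cells in all 6 libraries for 13. The ranges of fibroblast- or mesenchymal-like and Müller-like cells overlap, and there 7 enzymes were higher and 3 lower in all 6 libraries. The genes of the pathway were left out of the genes used for clustering.

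Treatment differences in the enzymes were not the same in each class. In fibroblast- or mesenchymal-like cells all 14 enzymes had log2 ratios above 0 over control for let-7 antagomiR, for miR-25 mimic and for the miR-124-labelled and triple-labelled libraries, with medians of 0.32, 0.46, 0.47 and 0.61, while the double combination gave 0.02. The double combination and the control were thus the low libraries in that class, at 825 and 819 CPM in sum. Pericyte- or smooth-muscle-like cells had 14 of 14 above 0 in the triple-labelled library, with a median of 0.60. Astrocyte-like cells had 14 of 14 below 0 in the miR-124-labelled library, with a median of -0.26. Medians of all genes in these comparisons lay between -0.01 and 0.07.

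**Figure D4:**
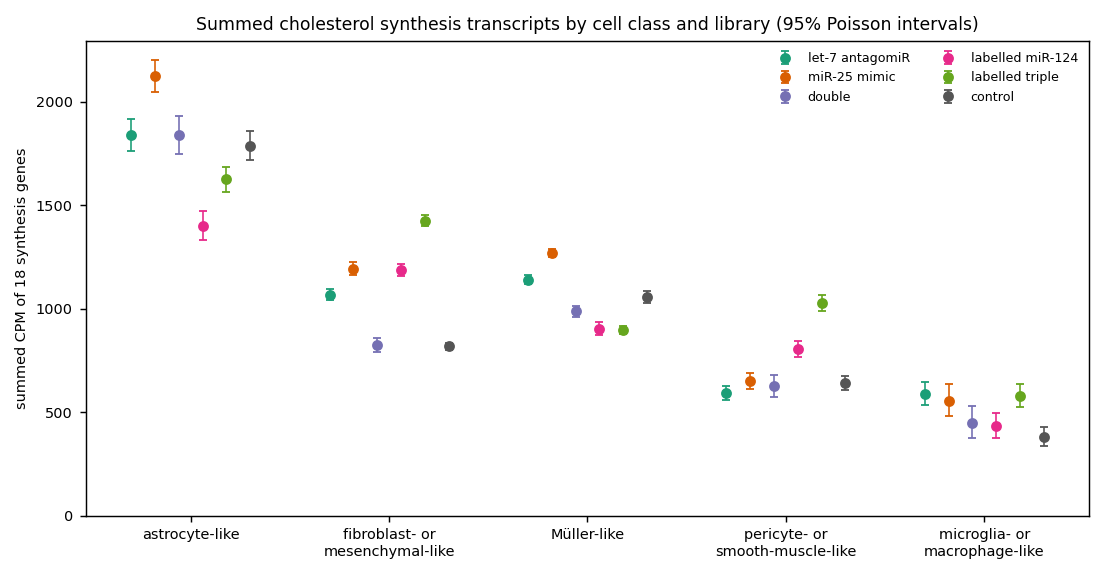
Summed level of the 18 synthesis enzymes (CPM, vertical axis from 0) by cell class; points are single libraries with 95% Poisson intervals. Astrocyte-like cells lie between 1401 and 2123 CPM and microglia- or macrophage-like cells between 381 and 587 CPM.

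Over the 30 sums of 6 libraries and 5 classes, most enzymes had like patterns, and Ebp had the lowest correlation of the 18. Pearson's r was taken between the log2 level of a gene and the log2 of the summed level of the other synthesis enzymes. It was 0.96 for Nsdhl and Idi1, 0.95 for Fdft1, 0.94 for Cyp51 and 0.93 for Sqle, and 0.12 for Ebp. Insig1 had 0.87 and Srebf1 0.73, while Apoe had -0.34 and Abca1 -0.27. These points share libraries, and classes differ in level. With class means removed r was 0.84 for Nsdhl, 0.70 for Idi1, 0.49 for Insig1, 0.30 for Ebp and 0.25 for Lss, then the lowest of the 18. It was then 0.54 for Srebf1, -0.035 for Apoe and -0.021 for Abca1, so the negative values of Apoe and Abca1 came with the differences between classes.

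Within each library, the enzymes were high in the same Müller-like cells. The 18 enzymes were put in alphabetical order and the odd ones used to rank the cells of a library by their share of UMIs; the even ones, which played no part in the ranking, were then read in the top and bottom 25% of cells. The even set was higher in the top cells in each library, by 2.23-fold with let-7 antagomiR, 1.85 under miR-25 mimic, 1.71 in the double combination, 1.64 in the miR-124-labelled library, 2.13 in the triple-labelled one and 2.02 in the control. Insig1 was higher in the same cells by 1.496-fold to 1.98-fold. Genes of fatty acid synthesis differed less, by 1.28-fold to 1.37-fold, and Abca1 was lower, at ratios of 0.47 to 0.91. Apoe did not go 1 way, with ratios from 0.899 in the triple-labelled library to 1.36 in the control. Median UMIs per cell differed by ratios of 1.02 to 1.16 between the 2 sets of cells. In the miR-124-labelled library, which gave the lowest ratio of Abca1, the Rlbp1-led cluster held 69.0% of top and 42.6% of bottom cells, and the part of this in the ratio was not tested.

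**Figure D5:**
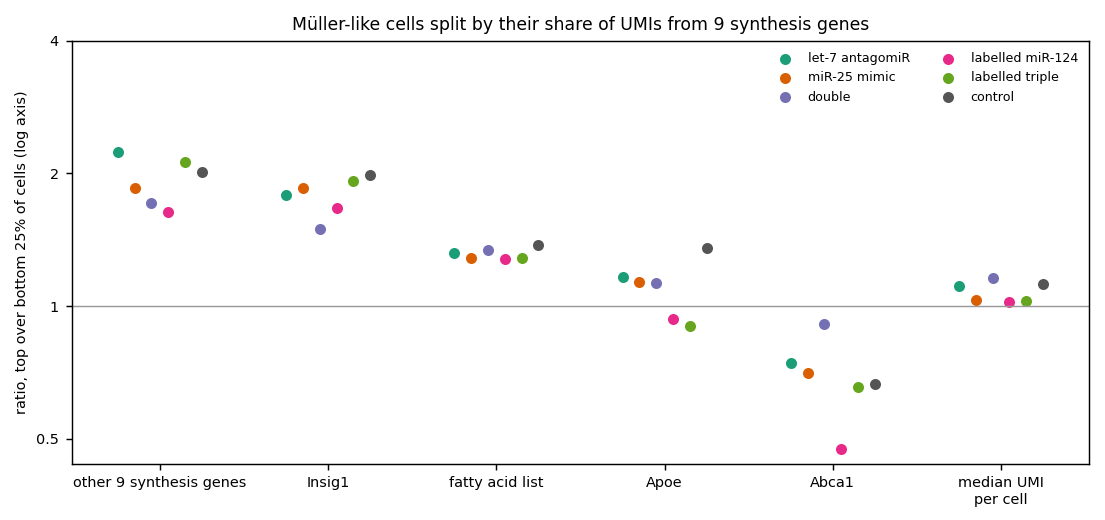
Ratio between the top and bottom 25% of Müller-like cells (vertical axis, log scale), ranked by the share of UMIs from 9 synthesis enzymes; points are single libraries. The other 9 enzymes lie between 1.64 and 2.23, Apoe between 0.899 and 1.36 and Abca1 between 0.47 and 0.91.

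One promoter is shown because it holds the only sterol element found. Promoters of 24 members were matched in RefSeq (GRCm38.p6, 250 bases before to 50 after the start). The sterol element TCACNCCAC, searched on both strands, was in 1 of them, Hmgcs1, and in 1.44% of 27025 genes. CCAAT, the box of the factor NF-Y that often stands beside such elements, was in 18 of 24 (75.0%) and in 41.1% of genes. The direct repeat bound by LXR receptors was in 0 of 24 and in 0.0148% of genes. The matched letters of the sterol element are in capitals.
Hmgcs1 promoter, chr13:119690101-119690400, + strand: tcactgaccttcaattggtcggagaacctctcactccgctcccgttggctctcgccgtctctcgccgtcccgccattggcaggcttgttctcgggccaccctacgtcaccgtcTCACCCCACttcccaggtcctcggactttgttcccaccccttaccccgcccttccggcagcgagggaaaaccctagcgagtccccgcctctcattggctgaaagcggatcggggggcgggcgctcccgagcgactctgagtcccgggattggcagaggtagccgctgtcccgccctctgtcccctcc

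Other genes of the pathway were counted from lists of 24 further cholesterol genes, 15 of which passed the level filter, and 14 genes of fatty acid synthesis, 10 of which passed. With miR-25 mimic over control, 1 of the 15 was called higher (Pltp, a lipid transfer protein) and 0 lower. Of the 10, 1 was higher (Scd1, a fatty acid desaturase, at 56.0 CPM with the mimic against 25.5 in the control) and 0 lower. Of all genes tested, 1.47% were higher and 0.997% lower. Let-7 antagomiR over control gave 0 calls in either list, where 1.08% of genes tested were higher and 0.688% lower. Of the 15, 14 had log2 ratios below 0 there, with a median of -0.21, where all genes had 0.01. Of the 10, 5 were below 0. In the double combination over control, 1 of the 15 was higher and 1 lower, where 3.29% and 4.97% of genes tested were. The higher one was Lipa, the lysosomal lipase, at 56.5 CPM against 35.3 in the control. In the miR-124-labelled library over control, 1 of the 15 was higher and 3 lower, and of the 10, 0 and 1. There 8.24% and 6.85% of genes tested were. In the triple-labelled library over control, 2 of the 15 were higher and 4 lower, where 11.4% and 8.97% of genes tested were. Lrp8, a receptor of apolipoprotein E, and Scarb1, a lipoprotein receptor, stood at 46.0 CPM in that library against 21.5 in the control and at 59.2 against 32.6 in the control. Pltp and Npc2, which carries cholesterol out of lysosomes, stood at 8.70 CPM in that library against 21.7 in the control and at 336 against 619.7 in the control.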

How the data were processed

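The files the authors deposited hold whole UMI counts for each gene in each cell of 6 libraries (10x Genomics V2, per the labels' protocols). Cell Ranger 2, Seurat 2 and mm10 are named in the submitters' processing notes; their counting settings and cell filters are not stated in the labels. The matrix of the double combination ends early, so its first 3014 of 5141 barcodes were used, and the last, incomplete cell was dropped. V2 libraries count tags at 3′ ends, so levels are compared within a gene only.

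Cells were kept with 500 or more genes and a mitochondrial share of UMIs up to 10%. Scrublet marked 0.111% to 3.06% of cells per library and under 0.5% in 3 of them, so its calls were not removed and doublets were treated by 2 alternatives. Cells of all libraries were clustered without integration in scanpy 1.11.5 (1996 variable genes, 30 principal components, 15 neighbours, Leiden resolution 0.6), leaving out the genes of the pathway. A cluster was named "-like" for the type that led its 10 leading genes. At least 3 markers of that type had to stand 2-fold or more above the median cluster, at 20 CPM or more. No other type could have as many such markers. The classes were Müller-like, astrocyte-like, fibroblast- or mesenchymal-like, pericyte- or smooth-muscle-like and microglia- or macrophage-like. Clusters of 998, 494 and 93 cells stayed unnamed by the last of these rules.

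Counts were summed per library and class, as CPM, and log2 ratios taken of CPM + 5 over the 7122 genes that reached 20 CPM in any library. Intervals are exact Poisson or conditional ratio intervals. The calculation was tested on simulated Poisson counts with known fold changes. These counts had no spread between libraries or cells and no change in cluster makeup, so they check the arithmetic only. The members and lists were chosen with earlier results of these data known. All 29 members are named, but Mvd, Lss, Tm7sf2 and Dhcr7, below the level filter, are given without levels in single libraries. Of the other lists, the 2 highest and 2 lowest genes of a comparison could be named. Some genes of these lists are not reported here. Alternatives were a pseudocount of 1 CPM, a filter at 50 CPM or none, median-of-ratios or TMM scaling, all kept cells, 2 other Leiden resolutions, 1000 genes per cell, the mean over cells, and single clusters. A planned search for miR-124 seed matches was not run, as its mature sequence was not in the table used. Python 3.11.15, numpy 2.4.6, scipy 1.17.1, R 4.3.3 and edgeR 4.0.16 (for TMM factors) were used.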

Additional observations from a re-analysis of the deposited data

Results flagged for a closer look

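The median log2 ratio of the 14 measured synthesis enzymes was 0.2551 for miR-25 mimic over control and -0.3266 for the double combination over let-7 antagomiR. Both comparisons add the miR-25 mimic, without and with let-7 antagomiR, and the medians have opposite signs, with all 14 enzymes above 0 in the first and 13 of 14 below 0 in the second. The difference between the 2 effects was not tested, since each rests on 1 library per side. Insig1 was lower in both, with CPM ratios of 0.541 and 0.404.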

How the results depend on the processing

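The 5 medians of the synthesis enzymes over control were recomputed under 14 other settings, 70 values in all. Of these, 67 lay between the medians of the per-gene counting bounds. Except for miR-25 mimic these bounds span 0, so a median that shrank to 0 still lay within them. The triple-labelled median was -0.0005 with no level filter, and that of the double combination -0.0085 over all kept cells. For let-7 antagomiR it was -0.0068 in the Lcn2-led cluster, where 15 enzymes passed the filter. Over all kept cells, in place of Müller-like cells, the medians became 0.2069 for the miR-124-labelled library and 0.3178 for the triple-labelled one. Within the Grem1-led cluster alone, a setting chosen after seeing the data, the second was 0.2684. For member log2 ratios past 1.5-fold, 25 in all, 319 of 350 recomputed values stayed past it and 2 turned sign: Fdps in the miR-124-labelled library over control was 0.1400 over all kept cells, and Ebp in the triple-labelled library over control was 0.1837 within the Grem1-led cluster. Insig1 for miR-25 mimic over control ranged from -1.0719 to -0.202 and for the double combination over let-7 antagomiR from -1.4736 to -0.922. The 31 calls lost were 9 over all kept cells, 13 in the Grem1-led and 9 in the Lcn2-led cluster. Over all kept cells, members called over control were 3 higher and 0 lower with miR-25 mimic (2 and 1 in Müller-like cells), where 6.84% and 3.74% of all genes were. They were 2 and 0 with let-7 antagomiR (0 and 0), where 3.46% and 1.84% were, and 3 and 1 for the double combination (0 and 2), where 4.10% and 3.94% were. They were 1 and 0 for the miR-124-labelled library (1 and 4), where 3.80% and 1.06% were, and 4 and 0 for the triple-labelled one (2 and 2), where 8.10% and 2.98% were. In the Grem1-led cluster the miR-124-labelled library had 0 higher and 2 lower, neither among its 4 in the whole class (4.15% and 4.98% of all genes), and the triple-labelled one 4 and 0 (3.72% and 3.82%). In the Lcn2-led cluster the double combination had 0 and 5 over control (4.6% and 6.75%) and 0 and 7 over miR-25 mimic (1.88% and 4.55%; 0 and 3 in the whole class), and over miR-25 mimic 0 and 5 at Leiden resolution 0.3 (2.22% and 3.65%). The triple-labelled library over the double combination had 6 higher (4 in the main setting) with a pseudocount of 1 CPM, where 21.2% were, and over all kept cells, where 8.98% were. In these results the cause was not tested, beyond that cells of other classes enter when all cells are used. No paired analysis was possible because each treatment has 1 library. Low counts limit Abcg1, Nr1h3 and the microglia- or macrophage-like cells most.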
